A study of Mus musculus with 18 samples.

Results

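Chromatin regulator genes were taken as the 75 genes, of 12019 in the table, whose symbols place them in the KDM, KMT, SETD, CHD, BRD, BRPF, ASXL, HDAC, KAT, ARID or SMARC families. The Y-linked Kdm5d was left out. The rule reads names alone and no measured value, but it was set with earlier results of these data known. The 75 members comprised 8 SETD methyltransferases, 14 KDM demethylases, 5 acetyltransferases or BRPF scaffolds, 10 histone deacetylases, 7 BRD proteins, 9 CHD remodelers, 12 SMARC proteins, 8 ARID proteins and 2 ASXL proteins. No symbol beginning with Kmt is listed, because the table uses older names for those genes. A further 13 genes of the same families, such as Mll1 for Kmt2a and Myst3 for Kat6a, stood under older symbols and were described apart from the 75.

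Livers came from C57BL/6J mice that entered the study at 21 weeks of age and were kept on their regime for 8 weeks. Mice in 4 intervention groups, each with 3 libraries, were set against ad libitum feeding, for which the labels list 6 libraries. The smallest ad libitum mean above 0 was 0.315, within the 0.299 to 0.322 of the groups with 3 libraries and above the 0.167 that 1 read over 6 libraries would give, so the ad libitum mean may rest on fewer than 6. Genes with a mean of 0 numbered 19 with ad libitum feeding and 29 to 34 in the other groups. The number of libraries behind the ad libitum mean is thus not settled. Caloric restriction cut intake by 30%. The compounds were mixed into the chow, rapamycin to give 42, metformin 37.5 and TM5614 20 mg/kg/day. Rapamycin inhibits the kinase mTOR, metformin is a glucose-lowering biguanide, and TM5614 is an inhibitor of the plasminogen activator inhibitor PAI-1. No sex is given in the labels. Values are group means of normalized counts, log2 fold changes over ad libitum and adjusted p-values, all as the authors deposited them, so no spread between mice and no SD can be given, and the adjusted p is the only measure that holds replicate error. All 4 comparisons share the ad libitum mean, so they are not independent of each other.

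Chromatin regulators write, erase and read chemical marks on histones or move nucleosomes. Methyltransferases and acetyltransferases add marks, demethylases and deacetylases remove them, bromodomain proteins bind acetylated lysine, and the CHD and SMARC ATPases slide or evict nucleosomes inside multi-subunit complexes such as NuRD, ISWI and BAF. In liver, HDAC3 with the NCOR corepressors holds down lipid synthesis genes in a daily rhythm. The family names do not all stand for work on histones. SETD3 methylates actin, HDAC6 acts on tubulin, HDAC10 on polyamines, SMARCAL1 re-anneals DNA at stalled replication forks, and ARID5A binds RNA.

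The members were low to moderate in level, spanned a wide range and had long exon sequence. Exon length here is that of all annotated exons of a gene merged, which can exceed the length of any single transcript and then lowers the level per kb. Per kb of exon, the mean over the 5 group means was highest for the acetyltransferase Kat2b (171 normalized counts per kb), followed by Setd3 (126 per kb), the BAF subunit Smarcd2 (121 per kb), the NuRD ATPase Chd4 (120 per kb) and the BET reader Brd2 (119 per kb). It was lowest for the class IIa deacetylase Hdac4 (1.93 per kb), the muscle-type BAF subunit Smarcd3 (2.04 per kb) and Arid3b (2.23 per kb). The median over members was 24.9 per kb, close to 27.5 per kb over the 11877 genes with an annotated length. Unscaled, Chd4, Brd2 and Kat2b had the highest mean normalized counts (965, 930 and 834), and Smarcd3, Arid3b and Hdac8 the lowest (10.5, 17.8 and 22.1). Among deacetylases Hdac11 was highest at 89.5 per kb and Hdac1, Hdac3 and Hdac2 followed at 53.0, 52.3 and 42.7 per kb. In the KDM family Kdm4a and Kdm5c led at 73.1 and 71.9 per kb, and among ARID proteins Arid5b led at 34.8 per kb. The neighbouring values in these orders lie close together and no spread is known, so their order is not fixed. Exon length was 7.78 kb at the member median, against 4.26 kb over all genes, and 43 of the 75 members lay in the longest of 4 equal bins of all genes by exon length.

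**Figure D1:**
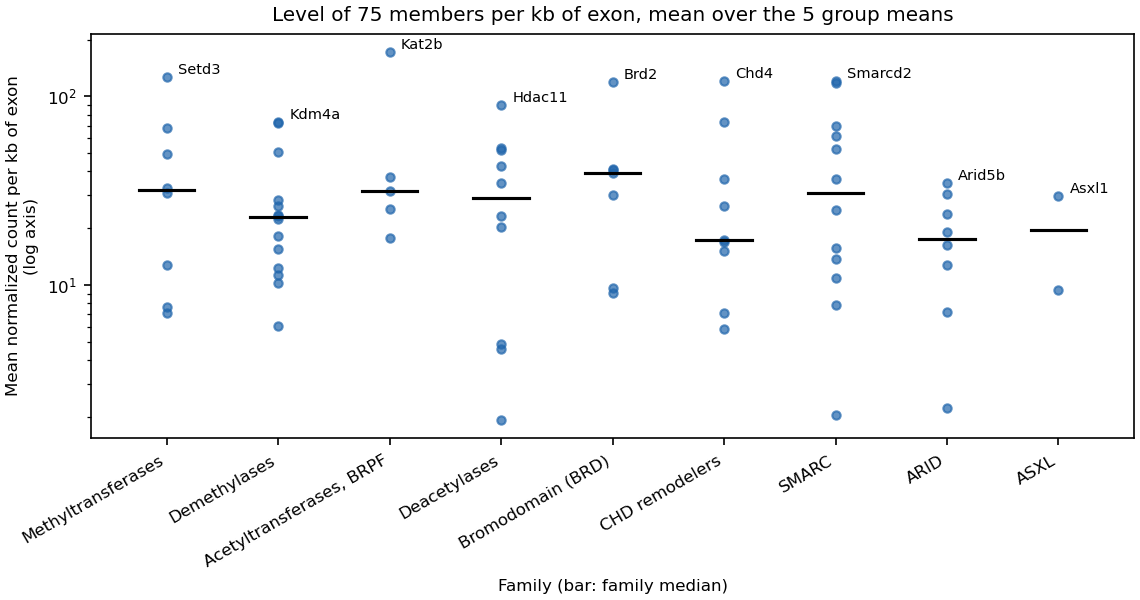
Each point is 1 of the 75 members, plotted as the mean of the 5 group means of normalized counts per kb of exon (vertical axis, log scale) by family (horizontal axis), with a bar at the family median and the highest member named. Members span from 1.93 (Hdac4) to 171 (Kat2b) per kb, and each of the 3 lowest sits in a different family.

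Promoters give the sequence context of these genes. RefSeq promoter windows (GRCm38.p6) that begin within 1000 bases of the annotated gene start were found for 52 of the 75 members and 8600 genes of the table. In the 250 bases before the start, the ratio of observed to expected CpG was 0.806 at the member median, against 0.737 over all genes, and 82.7% of members, against 68.3% of all genes, had a ratio of at least 0.6, a usual bound for a CpG-rich promoter. The members called higher under both caloric restriction and TM5614 that have a window, Asxl1, Brpf3 and Smarca5, are shown with Smarcal1, which was called lower under restriction. Capitals mark matches, on either strand, to the GC box GGGCGG, the CCAAT box CCAAT, the ETS site CCGGAAG, the E-box CACGTG, the cAMP response element TGACGTCA and the FOXO site TGTTTAC; none of these motifs holds another.
Asxl1, chr2:153345580-153345829, plus strand: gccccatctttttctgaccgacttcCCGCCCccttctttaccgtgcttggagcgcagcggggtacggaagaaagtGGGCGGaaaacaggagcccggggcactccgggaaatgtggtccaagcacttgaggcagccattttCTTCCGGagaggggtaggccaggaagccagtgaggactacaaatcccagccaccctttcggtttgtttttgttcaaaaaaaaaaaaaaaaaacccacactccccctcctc
Brpf3, chr17:28800876-28801125, plus strand: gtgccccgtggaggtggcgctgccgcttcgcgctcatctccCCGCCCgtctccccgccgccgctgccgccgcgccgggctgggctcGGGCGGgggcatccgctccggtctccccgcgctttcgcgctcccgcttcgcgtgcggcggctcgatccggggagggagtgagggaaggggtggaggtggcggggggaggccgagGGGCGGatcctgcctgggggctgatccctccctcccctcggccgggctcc
Smarca5, chr8:80739460-80739709, minus strand: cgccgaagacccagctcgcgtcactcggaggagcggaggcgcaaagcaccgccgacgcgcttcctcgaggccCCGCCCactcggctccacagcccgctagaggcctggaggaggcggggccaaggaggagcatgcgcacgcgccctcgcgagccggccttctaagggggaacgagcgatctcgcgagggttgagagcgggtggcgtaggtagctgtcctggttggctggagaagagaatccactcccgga
Smarcal1, chr1:72583001-72583250, plus strand: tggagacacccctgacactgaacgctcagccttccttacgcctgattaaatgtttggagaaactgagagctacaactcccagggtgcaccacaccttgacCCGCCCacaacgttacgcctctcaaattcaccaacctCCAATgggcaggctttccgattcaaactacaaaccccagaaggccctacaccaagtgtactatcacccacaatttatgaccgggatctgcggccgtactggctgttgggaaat
Each of the 4 windows holds at least 1 GC box; Asxl1 adds an ETS site and Smarcal1 a CCAAT box. The windows of Brpf3 and Smarca5 hold 34 and 29 CpG, and those of Asxl1 and Smarcal1 hold 11 and 9. A GC box stands in 65.4% of member windows and 59.5% of all windows, a CCAAT box in 36.5% and 36.9%, and an ETS site in 15.4% and 14.4%. An E-box stands in 3.85% and 8.70%, a FOXO site in 1.92% and 2.30%, and the cAMP response element in 0 of 52 member windows and 2.80% of all windows. These are counts of letters and were not tested.

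Caloric restriction changed 14 of the 75 chromatin regulators, 11 upwards and 3 downwards. This is 18.7% of the members, and 19.0% of the 11760 genes with an adjusted p were called, so the members' share was close to that of the whole table. Calls upwards made up 9.74% and calls downwards 9.24% of all genes tested. The median log2 fold change of members was 0.15, against 0.01 over 11201 genes (mean over groups of 10 or more), and 45 of 75 members had a positive value. Calls are the authors' adjusted p under 0.05, over all genes they tested. All 75 members had an adjusted p here, while 2 had none under rapamycin, 12 under metformin and 1 under TM5614. Beside these calls, 4 of 4 RNAs listed for RNA quality and nuclear RNA had positive values under restriction (median 0.82), and none of them passed; the part of this in the members' values was not tested.

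In the families named for writers, 3 SETD genes and a scaffold rose under restriction, though not all of these SETD proteins are established histone methyltransferases. The largest rise was that of Brpf3, the scaffold that directs the acetyltransferase HBO1 to histone H3. It lies on chromosome 17 (28801090-28839949; GENCODE vM21 on mm10, as for all positions here). Its means were 459 normalized counts under caloric restriction, 295 under rapamycin, 260 under metformin and 355 under TM5614, against 242 with ad libitum feeding, a log2 fold change of 0.93 under restriction, adjusted p = 3.22e-07, by the authors' deposited table. The ad libitum mean was thus the lowest of the 5. Setd3 reached 928 normalized counts under restriction, against 736 with ad libitum feeding (log2 fold change 0.33, adjusted p = 0.00174), by the authors' deposited table. Setd5, an HDAC3 and NCOR partner with debated enzyme activity, had 256 and 199 (0.36, adjusted p = 0.0458) in the same order of groups by the authors' deposited table. Setd1a, the catalytic subunit of an H3K4 methyltransferase complex, had 261 under restriction and 204 with ad libitum feeding (0.35, adjusted p = 0.0486), by the authors' deposited table. The last 2 lie just under the threshold. All 8 SETD members had a positive log2 fold change (median 0.34), and 5 of them did not pass. Among these 5 was Setd2, which trimethylates H3K36, at 0.35 with adjusted p = 0.109 by the authors' deposited table. Outside the 75, 14 of 26 other methyltransferase and COMPASS genes had a positive value under restriction (median 0.02). The acetyltransferases themselves did not pass, Kat2b having means of 862 under restriction and 875 with ad libitum feeding by the authors' deposited table.

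Erasers were split. Kdm6b (JMJD3), which removes methyl groups from H3K27, lies on chromosome 11 (69398508-69413675) and had means of 239 under restriction, 169 under rapamycin, 137 under metformin and 153 under TM5614, against 122 with ad libitum feeding, by the authors' deposited table. It was higher under restriction than in any other group and rose by a log2 fold change of 0.97, adjusted p = 0.00754, by the authors' deposited table. Kdm1b (LSD2), which demethylates H3K4, fell to 235 under restriction, against 295 with ad libitum feeding (-0.33, adjusted p = 0.0190), by the authors' deposited table. The other 12 demethylases did not pass, and the family median was -0.01. Hdac3 fell to 177 under restriction, against 234 with ad libitum feeding (-0.40, adjusted p = 0.0250), by the authors' deposited table; it was the 1 of 10 deacetylases that passed. Hdac1, of the NuRD and SIN3 complexes, had means of 155 and 195 (-0.33, adjusted p = 0.0934) under restriction and ad libitum feeding by the authors' deposited table. The median of the 10 deacetylases was -0.05, with 5 values above 0.

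Readers and remodelers included the most abundant genes that rose. Brd2, a BET protein that binds acetylated histone H4, had means of 1241 under restriction, 964 under rapamycin, 807 under metformin and 842 under TM5614, against 794 with ad libitum feeding, by the authors' deposited table (0.64 under restriction, adjusted p = 8.53e-04). Brd1, a scaffold of HBO1-type complexes, had 307 under restriction and 219 with ad libitum feeding (0.49, adjusted p = 0.00857), by the authors' deposited table. The other 5 BRD genes did not pass, and the BRD family median was -0.09. Smarca2 (BRM), an ATPase of the BAF complex encoded on chromosome 19 (26605050-26778322), had means of 1089 under restriction, 609 under rapamycin, 683 under metformin and 733 under TM5614, against 621 with ad libitum feeding, by the authors' deposited table. The restricted mean was the highest of the 5, with a log2 fold change of 0.81, adjusted p = 1.41e-06, by the authors' deposited table. Chd3, a NuRD ATPase encoded on chromosome 11 (69343273-69369406), had 804, 543, 518 and 718 under restriction, rapamycin, metformin and TM5614, against 511 with ad libitum feeding (0.66 under restriction, adjusted p = 6.75e-05), by the authors' deposited table. Smarca5 (SNF2H), the ATPase of ISWI complexes, had 543 under restriction and 415 with ad libitum feeding (0.39, adjusted p = 0.00419), by the authors' deposited table. Smarcal1 fell to 54.3 under restriction, against 86.0 with ad libitum feeding (-0.66, adjusted p = 0.0425), by the authors' deposited table.

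The alternative ATPases of the same complexes did not carry the same values. Smarca4 (BRG1), which takes the place of Smarca2 in BAF, had means of 378 under restriction and 440 with ad libitum feeding (-0.22, adjusted p = 0.123), by the authors' deposited table. Per kb of exon, Smarca2 stood at 1.31 times Smarca4 under restriction, at 0.560, 0.657 and 0.703 times under rapamycin, metformin and TM5614, and at 0.640 times with ad libitum feeding. The divisors are the merged annotated exons, 14.3 kb for Smarca2 and 6.48 kb for Smarca4. Undivided, Smarca2 had the higher mean in every group, with 621 against 440 under ad libitum feeding. Which gene stands higher outside restriction thus depends on the divisor. Chd4, the alternative to Chd3 as ATPase of NuRD, had a log2 fold change of 0.11 under restriction, adjusted p = 0.579, by the authors' deposited table. The ratio of Chd3 to Chd4 per kb was 0.773 under restriction, 0.484 under rapamycin, 0.531 under metformin and 0.738 under TM5614, against 0.528 with ad libitum feeding. These pairs were chosen after the values were seen, and the difference within a pair was not tested. Of the 12 SMARC genes only 4 had a positive value under restriction (median -0.21), and among the 8 CHD genes other than Chd3 none passed.

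Asxl1, partner of the BAP1 deubiquitinase that acts on ubiquitinated H2A, is encoded on chromosome 2 (153345829-153404007) and had means of 244 under restriction, 213 under rapamycin, 207 under metformin and 274 under TM5614, against 168 with ad libitum feeding, by the authors' deposited table. Its ad libitum mean was the lowest of the 5, and it rose under restriction (0.54, adjusted p = 0.00980) by the authors' deposited table. No ARID gene passed, although 7 of 8 had positive values. Arid5b, a partner of the demethylase PHF2, came closest with means of 454 and 246 (0.88, adjusted p = 0.0523) under restriction and ad libitum feeding by the authors' deposited table.

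**Figure D2:**
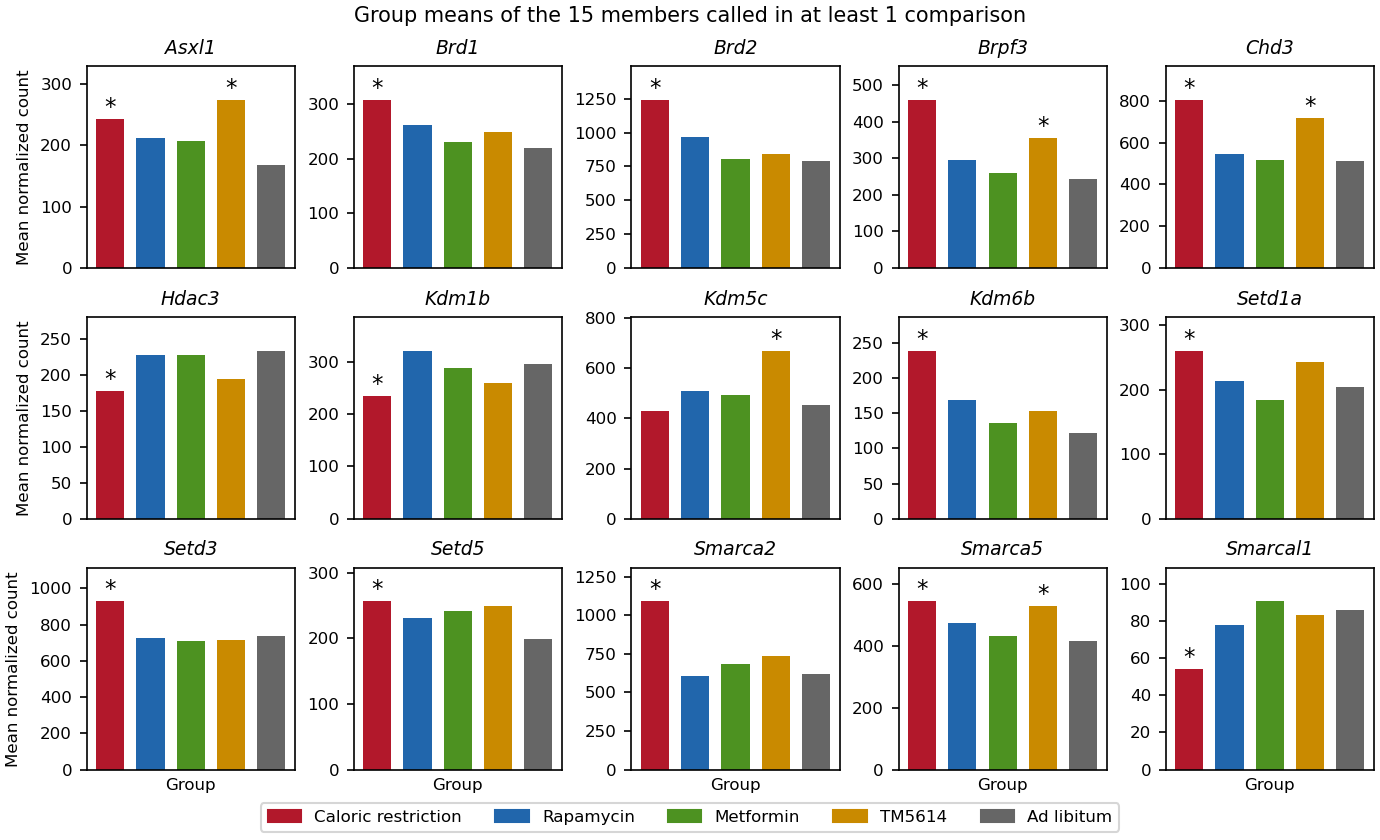
Bars give the authors' group mean of normalized counts (vertical axis, from 0) for the 15 members called in at least 1 comparison, in the order caloric restriction, rapamycin, metformin, TM5614 and ad libitum; a star marks an adjusted p under 0.05 against ad libitum. Brpf3, Kdm6b, Smarca2 and Brd2 are highest under restriction (459, 239, 1089 and 1241), while Asxl1 and Kdm5c are highest under TM5614 (274 and 670).

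TM5614 raised 5 members and lowered none of the 74 with an adjusted p, which is 6.76%, against 3.96% of all 10834 genes tested (2.01% higher and 1.95% lower). Kdm5c, an H3K4 demethylase encoded on chromosome X (152233020-152274535), had means of 430 under restriction, 508 under rapamycin, 492 under metformin and 670 under TM5614, against 455 with ad libitum feeding, by the authors' deposited table. It rose under TM5614 (0.56, adjusted p = 0.00287) and not under restriction (-0.08, adjusted p = 0.741) by the authors' deposited table; the difference between these comparisons was not tested. Asxl1 rose by 0.71 under TM5614, adjusted p = 0.00262, by the authors' deposited table. Brpf3 rose to 355 under TM5614, against 242 with ad libitum feeding (0.55, adjusted p = 0.0233), by the authors' deposited table. Chd3 had 718 under TM5614 and 511 with ad libitum feeding (0.49, adjusted p = 0.0209), and Smarca5 had 529 and 415 (0.35, adjusted p = 0.0412), by the authors' deposited table. Asxl1, Brpf3, Chd3 and Smarca5 were thus called in both comparisons, which share the ad libitum mean, a mean that is the lowest of the 5 for each of these genes. Hdac5, a class IIa deacetylase, had 224 under TM5614 and 339 with ad libitum feeding (-0.60, adjusted p = 0.0699), and did not pass by the authors' deposited table.

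The values under TM5614 moved with exon length over the whole table. The median log2 fold change of members was 0.14 (53 of 75 above 0), against -0.01 over all genes (49.0% above 0). Over all genes split by exon length into 4 equal bins, the median was -0.12 in the shortest bin (30.6% above 0), -0.03 in the second, 0.04 in the third and 0.10 in the longest (65.2% above 0). In the longest bin, genes of at least 6.80 kb, 93 were called higher and 28 lower of 2724 tested. The shortest bin held 12 called higher and 90 lower of 2652 tested. Of genes with exons at least as long as the member median, 4.78% of 2073 tested were called under TM5614, 76 higher and 23 lower. Their median was 0.11, with 66.3% above 0. The 43 members in the longest bin had a median of 0.18, with 37 above 0, and all 5 members called under TM5614 belong to them. The 22 members in the third bin had a median of 0.02, and the first and second bins hold only 1 and 9 members. Under restriction the medians of all genes ran from -0.04 in the shortest to 0.05 in the longest bin, and the members had -0.03 in the third and 0.18 in the longest. The longest bin, with 43 of the 75 members, held 9 of the 11 members called higher and none of the 3 called lower. Over all genes, 340 were called higher and 203 lower of 2768 tested in that bin. In the shortest bin 216 were called higher and 341 lower of 2761. The part of length in these results was not tested.

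**Figure D3:**
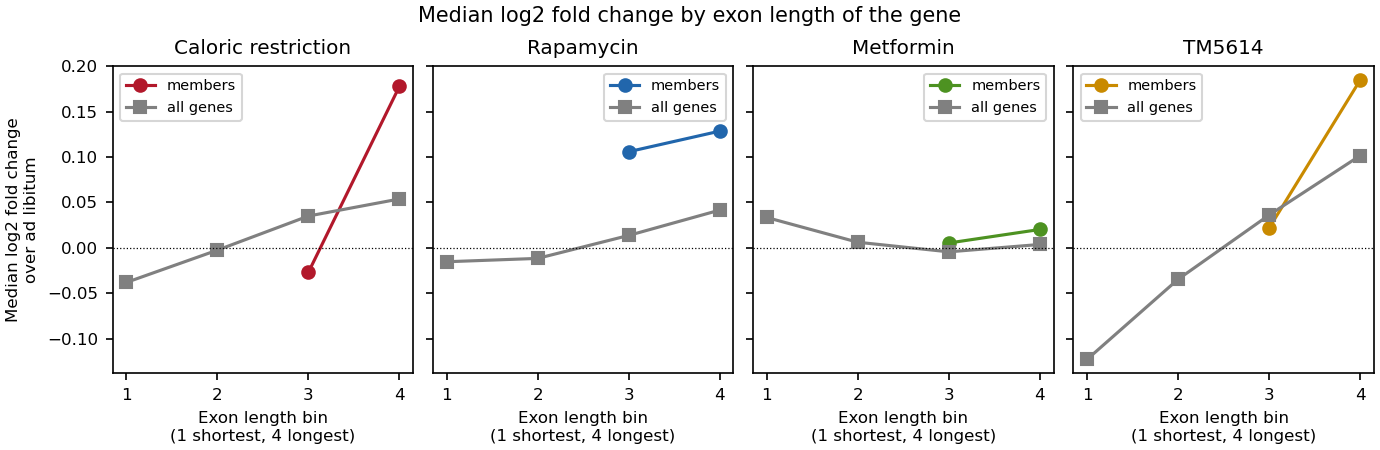
Median log2 fold change over ad libitum (vertical axis) by bin of exon length (horizontal axis, 1 shortest, 4 longest) for members (circles, shown where a bin holds at least 20 members) and all genes with a mean of at least 10 (squares), 1 panel per intervention. Under TM5614 the medians of all genes climb from -0.12 to 0.10, and the 43 longest members lie at 0.18.

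Rapamycin and metformin called no member. Under rapamycin 0 of the 73 members with an adjusted p passed, where 1.39% of 10369 genes were called by the authors with DESeq2 (0.714% higher and 0.675% lower). Under metformin 0 of 63 passed, where 0.245% of 7350 genes were called (0.163% higher and 0.0816% lower). The smallest adjusted p-values of members were 0.109 for Arid5a under rapamycin and 0.528 for Setd8 (now Kmt5a), which monomethylates H4K20, under metformin by the authors' deposited table. The deposited table holds no unadjusted p, so no count at an unadjusted threshold can be given, and at an adjusted p under 0.1 the counts were still 0. Arid5a, whose product stabilises cytokine transcripts, had the widest range of any member, with means of 80.5 under restriction, 209 under rapamycin, 41.3 under metformin and 85.6 under TM5614, against 35.6 with ad libitum feeding, by the authors' deposited table. Its log2 fold change of 2.56 under rapamycin did not pass, and neither did 1.27 under TM5614 (adjusted p = 0.455) or 1.18 under restriction (adjusted p = 0.373), by the authors' deposited table. The median of members was 0.09 under rapamycin (49 of 75 above 0) and 0.03 under metformin (43 of 75 above 0), against 0.01 over all genes in both. By exon length, the rapamycin median of all genes was -0.02 in the shortest bin (47.5% above 0) and 0.04 in the longest (57.2% above 0). The 43 members in the longest bin had 0.13 under rapamycin. For metformin the medians of all genes were 0.03 in the shortest bin and 0.004 in the longest. The part of length was not tested here either. Under metformin all members lay between -0.43 (Chd1) and 0.47 (Kdm4c).

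**Figure D4:**
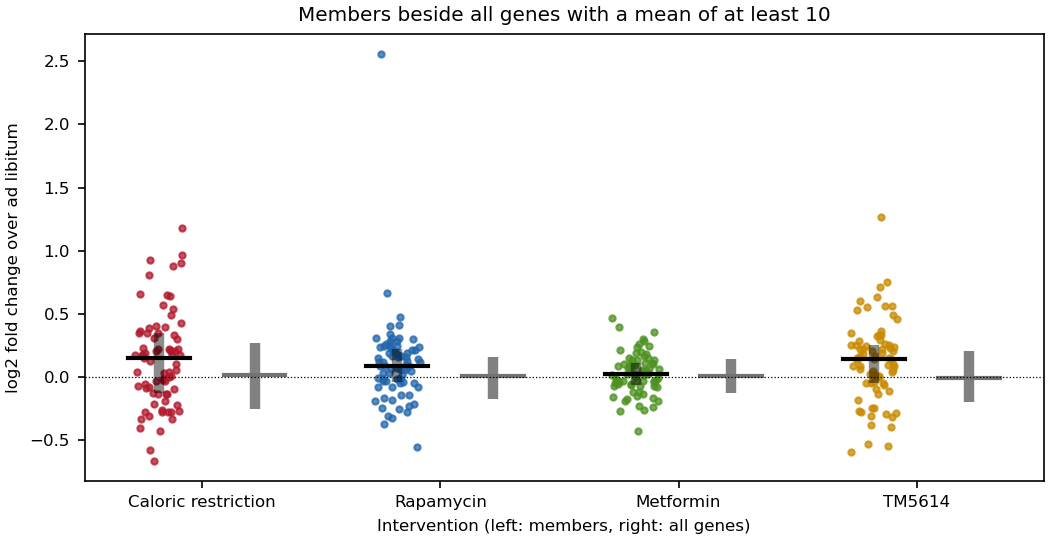
Points are the log2 fold changes over ad libitum of the 75 members (vertical axis) under each intervention (horizontal axis); horizontal bars are medians and thick vertical bars the range from the first to the third quartile, for members (left) and for all genes with a mean of at least 10 (right, grey). Member medians are 0.15, 0.09, 0.03 and 0.14 from left to right, and the point at 2.56 under rapamycin is Arid5a.

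The spread of members over the groups was modest. The highest of the 5 group means was 1.32 times the lowest at the member median, and 23 of 75 members reached 1.5 times. Set directly against caloric restriction, without the ad libitum mean, the median log2 ratio of members was 0.00 for rapamycin, -0.13 for metformin and 0.03 for TM5614, against -0.01, -0.00 and 0.00 over all genes. The widest single contrast was that of Arid5a, with a log2 ratio of metformin over rapamycin of -2.34. For TM5614 over restriction the highest ratio was that of the H3K9 demethylase Kdm4c, at 0.91. No test between interventions was possible from group means.

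**Figure D5:**
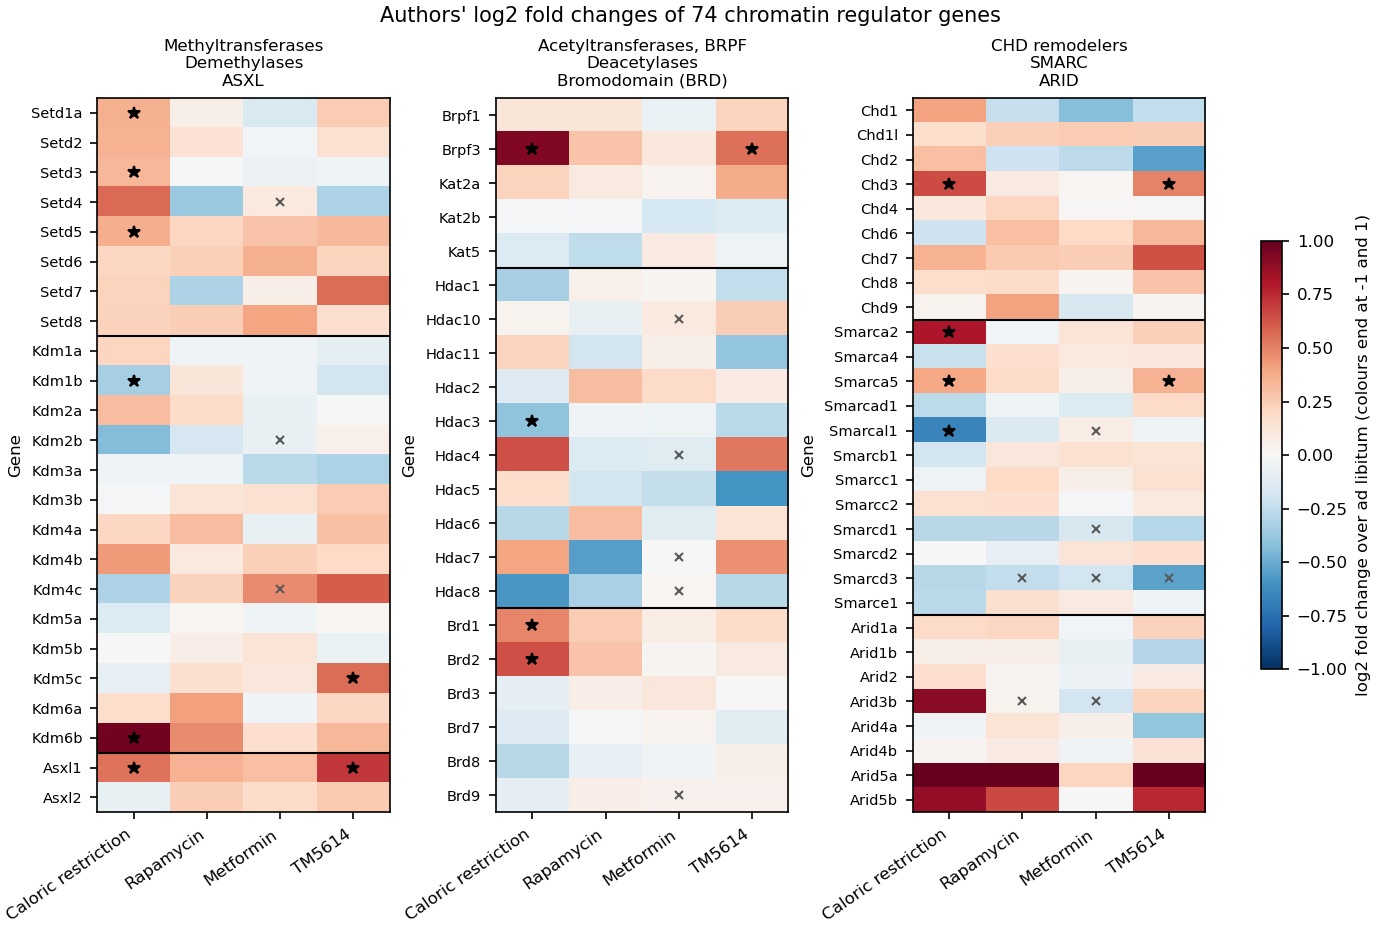
Colours give the authors' log2 fold change over ad libitum for 74 of the 75 members (rows, by family) under the 4 interventions (columns); stars mark an adjusted p under 0.05 and crosses members without an adjusted p. The caloric restriction column holds 14 stars and the TM5614 column 5, the rapamycin and metformin columns none, and Arid5a exceeds the colour range under restriction (1.18), rapamycin (2.56) and TM5614 (1.27).

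Other chromatin genes were described in the same way. The 13 genes under older symbols held no call in any comparison, with the smallest adjusted p at 0.134 for Myst3 (Kat6a) under restriction by the authors' deposited table. Of 152 further chromatin genes, 14 rose and 7 fell under restriction (median 0.03), which is 13.8% called, against 19.0% of all genes. Under rapamycin 1 of 147 fell (0.680%, against 1.39% of all genes), and under metformin 1 of 115 fell (0.870%, against 0.245%). Under TM5614 2 rose and 1 fell of 150 (2.0%, against 3.96%). These shares were not tested against each other. Of 28 Polycomb genes, 4 rose and 1 fell under restriction, Phc1, a PRC1 subunit, having the largest change with means of 31.1 and 14.8 under restriction and ad libitum feeding by the authors' deposited table. Of 26 other methyltransferase and COMPASS genes, 2 rose and 3 fell, led by the H3K79 methyltransferase Dot1l at 1.06, adjusted p = 0.00165, by the authors' deposited table. Of 22 corepressor genes, Suds3 rose and Mta3, a NuRD subunit, fell to 50.3, against 133 with ad libitum feeding (-1.41, adjusted p = 6.25e-10), by the authors' deposited table. The NAD-dependent deacylases Sirt2 and Sirt3 rose and Sirt5 fell (-0.83, adjusted p = 5.01e-04) among 7 sirtuins under restriction by the authors' deposited table. Among 9 DNA methylation genes 1 rose and 1 fell under restriction. The fall was that of Mbd1, a methyl-CpG binding protein (-0.70, adjusted p = 0.0108), by the authors' deposited table. Of 9 genes listed as other demethylases and JmjC proteins, Jmjd1c rose under restriction (0.77), as did Phf20 (0.88), which is a reader subunit of an acetyltransferase complex and not a demethylase, by the authors' deposited table. Of 25 acetyltransferase complex genes Ing1, known mainly as a subunit of the SIN3 deacetylase complex, rose (0.68), and of 16 other remodelers Baz1a rose (0.94) under restriction by the authors' deposited table. None of 10 other BAF subunits passed there. Under TM5614 Phf8, an H3K9 demethylase, rose by 1.01 and the Polycomb gene Phc3 by 0.70 by the authors' deposited table. Setdb2, an H3K9 methyltransferase outside the 75, fell under all 4 interventions, with means of 108 under restriction, 86.5 under rapamycin, 91.2 under metformin and 97.6 under TM5614, against 211 with ad libitum feeding, by the authors' deposited table.

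The livers carried high hepatocyte transcripts, Alb having the highest of the marker means in each group, and of 9 hepatocyte markers 3 rose and 2 fell under restriction. Sums of other cells' markers differed between groups. The 12 Kupffer cell and macrophage markers summed to 1213 normalized counts under restriction, 1877 under rapamycin, 1702 under metformin and 1800 under TM5614, against 2402 with ad libitum feeding, and 4 of 11 with an adjusted p fell under restriction. The 10 sinusoidal endothelial markers summed to 2195, 1573, 1722 and 2214 in that order of interventions, against 2380, with 2 falls under rapamycin. The 10 stellate markers summed to 3312, 2559, 2721 and 2837, against 3132, with 1 fall each under restriction and rapamycin. The sums of 6 proliferation markers (556, 459, 533 and 510, against 520), 6 cholangiocyte markers (420, 337, 358 and 275, against 326), 4 erythroid markers (1049, 992, 1361 and 1268, against 1149), 3 neutrophil markers (55.9, 148, 50.4 and 56.6, against 92.3), 6 B and plasma cell markers (46.9, 56.9, 61.0 and 63.3, against 44.1) and 2 T and NK cell markers (6.44, 7.84, 6.33 and 4.68, against 4.88) follow the same order. Of these, Mcm3, Mcm5 and Alas2 fell under restriction. The sums hide unlike members. Marco, a macrophage marker without an adjusted p in any comparison, had 261 with ad libitum feeding and 27.3 to 44.5 in the other groups. Of the 12 Kupffer cell and macrophage markers, 1, 2, 1 and 1 had log2 fold changes above 0, in the same order of interventions. None of them was called under rapamycin, metformin or TM5614. Values above 0 were held by 3, 0, 1 and 4 of the 10 sinusoidal endothelial markers and by 5, 0, 2 and 2 of the 10 stellate markers. The rapamycin medians of these 2 lists were -0.66 and -0.45. Without Alas2, the 3 globin transcripts had positive log2 fold changes under restriction that did not pass, Beta-s at 1.22, Hba-a1 at 0.89 and Hba-a2 at 1.37, by the authors' deposited table. Most of the proliferation sum is Pcna, with means of 375 under restriction and 285 with ad libitum feeding, while the list's median log2 fold change there was -1.09. None of the markers in the table is listed at 0 in any group. The ribosomal RNA precursor Rn45s had means of 39519 under restriction, 44095 under rapamycin, 366479 under metformin and 10283 under TM5614, against 17687 with ad libitum feeding, by the authors' deposited table. It rose under metformin (4.37, adjusted p = 0.00561), and its values under restriction (1.16, adjusted p = 0.454), rapamycin (1.32, adjusted p = 0.672) and TM5614 (-0.78, adjusted p = 0.732) did not pass by the authors' deposited table. Lars2, whose name is that of a mitochondrial leucyl-tRNA synthetase, had 2559 under restriction, 2368 under rapamycin, 21730 under metformin and 629 under TM5614, against 911 with ad libitum feeding, and also rose under metformin (4.58, adjusted p = 0.00295), by the authors' deposited table. Together the 4 RNAs of that list summed to 44667 under restriction, 48154 under rapamycin, 390554 under metformin and 13636 under TM5614, against 20549 with ad libitum feeding. The nuclear RNA Neat1 had 1528 under TM5614, against 853 with ad libitum feeding (adjusted p = 0.105), by the authors' deposited table. The part of these in the members' values was not tested, and in whole liver fewer cells of a type and less RNA per cell cannot be told apart.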

How the data were processed

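Poly(A)-selected RNA from perfused whole livers was sequenced, per the labels' protocols, and aligned with HISAT2 2.0.5 to mm10, according to the submitters' processing notes; no gene counter or strand setting is named. The authors deposited, per the file headers, a normalized signal per group (mean normalized counts, scaled by size factors with DESeq2 as the table's name says), a log2 fold change and an adjusted p-value for each intervention against the control. The design text speaks of 30 mice; the labels list 18 libraries. The smallest control mean above 0 was 0.315, as in the groups with 3 libraries (0.299 to 0.322). A single read would give about 0.333 over 3 libraries and 0.167 over 6. The control mean may thus rest on 3 libraries, and which ones is not known. Fewer genes had a mean of 0 in the control (19) than in the other groups (29 to 34), so this is not settled. Library depth is unknown; the group means sum to between 7783345 and 8368017. A table of 18 columns per library was not used, since its column names match no label, so the tests per library that had been listed as alternatives were not run. A log2 fold change headed TM5441, a compound no label names, was not analysed here. The values of 1 member and of 1 other chromatin gene are not reported here by name, and both stay in the counts.

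Genes were called at the authors' adjusted p under 0.05, and members were described by counts and medians (mean over groups of at least 10) beside all genes, with no set test. Members and lists were chosen with earlier results of these data known. The genes named are members called in any comparison, the 3 highest and 3 lowest members, the highest of each family, and the called gene with the largest change in each other list; others, such as Arid5a, Kdm4c, Hdac1, Hdac5, Setd2, Smarca4 and Chd4, were chosen after their values were seen. Levels were divided by the union of exons in GENCODE vM21 (75 members, 11877 genes matched); older symbols were matched through RefSeq synonyms. Promoter letters are RefSeq's, GRCm38.p6. Python 3.11.15 and pandas 2.3.3 were used, and counting was tested on simulated data.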

Additional observations from a re-analysis of the deposited data

How the results depend on the processing

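The number of members called under caloric restriction was 14 at an adjusted p under 0.05 and 9, all higher, at an adjusted p under 0.01, so that the 3 falls (Hdac3, Kdm1b and Smarcal1) rest on the looser threshold. It was 7 with an absolute log2 fold change of at least 0.5 required. Under TM5614 the count was 5, and it was 2 at an adjusted p under 0.01 and 3 with that fold required. Fewer calls follow from the construction of both alternatives. An adjusted p under 0.1 gave 17 and 7 calls for these comparisons, and a mean over groups of at least 100 gave 13 and 5. Rapamycin and metformin stayed at 0 under each of these settings. Member medians kept their sign and moved by less than 0.1 on the log2 scale under another level filter, pseudocounts of 1 and 10 and centring on all genes. All 57 values recomputed for named members kept their direction, which also follows from the construction. A pseudocount cannot change the sign of a ratio of group means, and centring took off only the small median of all genes. No paired analysis was possible because the table holds group means and the columns per library carry no label; for the same reason no replicate could be left out in turn, and limma was not run. Without values per library, no result here could be checked for dependence on 1 mouse.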

Other observations

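Chd3 and Kdm6b, both higher under caloric restriction, are the only pair of members within 100 kb of each other. In GENCODE vM21 on mm10 they lie on chromosome 11, Chd3 from 69343273 to 69369406 and Kdm6b from 69398508 to 69413675, both protein-coding, on the minus strand and 29.1 kb apart. The table lists 3 genes that can be placed between them. Cyb5d1 (0.02, adjusted p = 0.975), Lsmd1 (-0.10, adjusted p = 0.808) and Tmem88 (-0.42, adjusted p = 0.60) did not pass under restriction, by the authors' deposited table. A row named Naa38 was not placed, since RefSeq gives that name both to Lsmd1 today and, as an older name, to Lsm8 on another chromosome. The pair was picked out after the values were seen, and no test of it was run.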
